A study of Mus musculus with 45 samples.

Results

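The dual-specificity phosphatases Dusp1, Dusp4, Dusp5, Dusp6, Dusp8, Dusp10 and Dusp16 and the Sprouty genes Spry1, Spry2 and Spry4 are feedback inhibitors of receptor tyrosine kinase and MAP kinase signalling. They were chosen by symbol, with earlier results of these data known. All 10 were found among the 28454 genes counted in 45 mRNA libraries of mouse mammary tumour lines. The lines come from tumours of MMTV-MYC mice, in which the mouse mammary tumour virus promoter drives MYC in the mammary epithelium, so every group carries the same transgene. MYAZ16_1e, MYAZ12_3i and MYAZ6_6g (the MYAZ subtype) and Myc310 were isolated from mammary tumours. LM1, LM2 and LM3 were grown out of the lungs of FVB/NJ mice that carried fat pad tumours of Myc310. LM1_LM was obtained in the same way from mice given LM1 cells, and the study names LM2_LM and LM3_LM as its biological replicates. MYAZ12_3i_NDI1 carries, by its label, NDI1, a yeast NADH dehydrogenase that can stand in for mitochondrial complex I. All 11 lines were grown for 24 h in DMEM:F12 with serum, insulin, hydrocortisone and EGF and, by their labels, for a further 6 h after a change to control medium, a change that the study's methods give only for the lines that were also deprived. MYAZ16_1e, Myc310, LM1 and LM1_LM were also kept for those 6 h in cysteine/cystine-free medium. Each line and medium had 3 cultures, which the design calls technical replicates, so p-values for deprivation and NDI1 measure the spread between cultures of a line, whereas those between subtypes also take in the spread between lines. Myc310 and each of the other lines is a single line, and all LM and LM_LM lines descend from Myc310.

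MAP kinases are switched on by phosphorylation of a threonine and a tyrosine in their activation loop, and the dual-specificity phosphatases remove both phosphates. Dusp1 and Dusp4 encode nuclear enzymes that act on ERK, JNK and p38. Dusp5, in the nucleus, and Dusp6, in the cytoplasm, are selective for ERK, whereas Dusp8, Dusp10 and Dusp16 act mainly on JNK and p38. Sprouty proteins block the path from receptor tyrosine kinases to RAS and ERK. Transcription of many of these genes is itself raised by MAP kinase signalling, which closes a negative feedback loop, and the EGF in the medium is one ligand that feeds it in mammary epithelial cells. Only mRNA was measured here, not protein, phosphatase activity or kinase phosphorylation, and in bulk cultures fewer cells expressing a gene and less RNA per cell cannot be told apart.

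Total counts on genes ranged from 19517859 to 29019988 per library (median 22899900). Levels are CPM, that is counts scaled to each library's total after TMM correction over all libraries. Libraries correlated with the others of their group at 0.995 to 0.997 (log2 CPM), and no pair of libraries of the same group agreed to within sampling noise. Myc was counted at 421 to 591 CPM on average in the MYAZ lines, at 1335 CPM in Myc310 and at 693 to 1178 CPM in the LM and LM_LM lines in control medium. The epithelial keratin Krt8 was present at 217 to 1731 CPM and Krt18 at 94.0 to 550.0 CPM, whereas the epithelial adhesion genes Epcam and Cdh1 stayed at or below 0.802 and 0.284 CPM. The leukocyte gene Ptprc, the endothelial gene Pecam1 and the alveolar gene Sftpc did not exceed 0.246 CPM in any library. Other genes of these lists were present. Cd14 lay at 13.6 to 59.0 CPM and Cd68 at 2.70 to 18.7 CPM (leukocyte list), and Egfl7 at 5.64 to 19.3 CPM (endothelial list). The endothelial gene Kdr reached 6.36 CPM and the alveolar gene Hopx 5.76 CPM. Of the genes found, 4 of 7 leukocyte, 6 of 8 endothelial and 3 of 6 alveolar markers stayed under 1 CPM in every library. The summed fibroblast markers ranged from 1.73 CPM in Myc310 to 217 CPM in LM3_LM.

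The promoters of 8 of the 10 genes were taken from the RefSeq promoter set (GRCm38.p6, 250 bases before to 50 bases after the start site). They were searched on both strands for the cAMP response element (CRE, TGACGTCA) and its core TGACG, which lies within it, the CEBP-ATF response element TGATGNAAN, the AP-1 site TGANTCA, the E-box CACGTG and the serum-response CArG box. The stretches from -200 to -51, counted from the start site, are shown for the 3 genes that hold a CRE or a CArG box and for Spry1, the gene that fell under deprivation. Capitals mark CRE and CArG box matches.
Dusp8 (chr7:142095335-142095484, minus strand): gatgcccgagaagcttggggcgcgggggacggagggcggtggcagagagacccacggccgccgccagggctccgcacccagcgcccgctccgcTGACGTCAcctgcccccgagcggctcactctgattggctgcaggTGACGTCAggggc
Dusp1 (chr17:26508523-26508672, minus strand): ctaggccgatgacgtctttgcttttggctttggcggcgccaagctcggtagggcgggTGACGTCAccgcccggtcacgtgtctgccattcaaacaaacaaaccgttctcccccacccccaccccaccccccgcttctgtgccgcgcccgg
Dusp5 (chr19:53528945-53529094, plus strand): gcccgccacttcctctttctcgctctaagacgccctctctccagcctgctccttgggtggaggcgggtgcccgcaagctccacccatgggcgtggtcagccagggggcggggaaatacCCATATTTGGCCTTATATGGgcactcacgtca
Spry1 (chr3:37639747-37639896, plus strand): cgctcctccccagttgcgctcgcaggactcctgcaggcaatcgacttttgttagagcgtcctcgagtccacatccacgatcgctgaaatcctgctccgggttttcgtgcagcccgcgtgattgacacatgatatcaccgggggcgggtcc
In GRCm38 (GENCODE) Dusp8 spans chr7:142079490-142095843, Dusp1 chr17:26505590-26562128, Dusp5 chr19:53529109-53542431 and Spry1 chr3:37639947-37644598, and all 4 stretches lie upstream of the RefSeq start site and outside exons of the gene itself. Those of Dusp8 and Dusp1 lie within the span of the GENCODE gene, and those of Dusp5 and Spry1 overlap an exon of AC137853.2 and of Gm42922 on the other strand. Dusp8 held 2 CRE matches, beginning at -107 and -63 from the start site, and Dusp1 held 1, at -143. The letters of the CRE occurred in 588 of all 32851 promoters of this length (1.79%). Dusp5 held adjoining CArG boxes at -82 and -72. Promoters with any CArG box made up 1.63% of all, and adjoining pairs were not counted. The core TGACG, present in 20.8% of promoters, was found in Dusp1, Dusp5, Dusp8 and Dusp16. The CEBP-ATF letters, present in 3.95% of promoters, and the AP-1 letters, present in 7.81%, matched in none of the 8 windows, and the E-box (7.15% of promoters) matched in Dusp1 alone. The Spry1 window held no match to any of these letters. Dusp4 and Spry4 had no sequence shown here.

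The first comparison asked how each gene changed when cysteine and cystine were withdrawn for 6 h, line by line. The phosphatase genes and Spry2 and Spry4 rose in all 4 lines, and Spry1 fell in Myc310, LM1 and LM1_LM. Dusp8 rose most in each line, 4.41-fold in MYAZ16_1e and 16.7-fold in LM1. It was followed by Spry4 and Dusp1 in MYAZ16_1e and by Dusp1, Dusp10 and Dusp16, in differing order, in the other 3 lines. In MYAZ16_1e, 9 of the 10 genes passed the threshold upward, where 26.6% of the 13400 genes tested were higher and 27.1% lower. In Myc310 9 were higher and 1 lower, against 32.8% and 33.9% of genes tested. The counts were again 9 higher and 1 lower in LM1, against 35.8% and 35.3%, and in LM1_LM, against 36.5% and 35.9%. The median log2 fold change of the 10 genes was 0.36 in MYAZ16_1e, 0.73 in Myc310, 1.01 in LM1 and 1.13 in LM1_LM, while that of all genes tested lay between -0.01 and 0.00. Changes were tested with edgeR's quasi-likelihood test and Benjamini-Hochberg adjustment at 0.05.

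**Figure D1:**
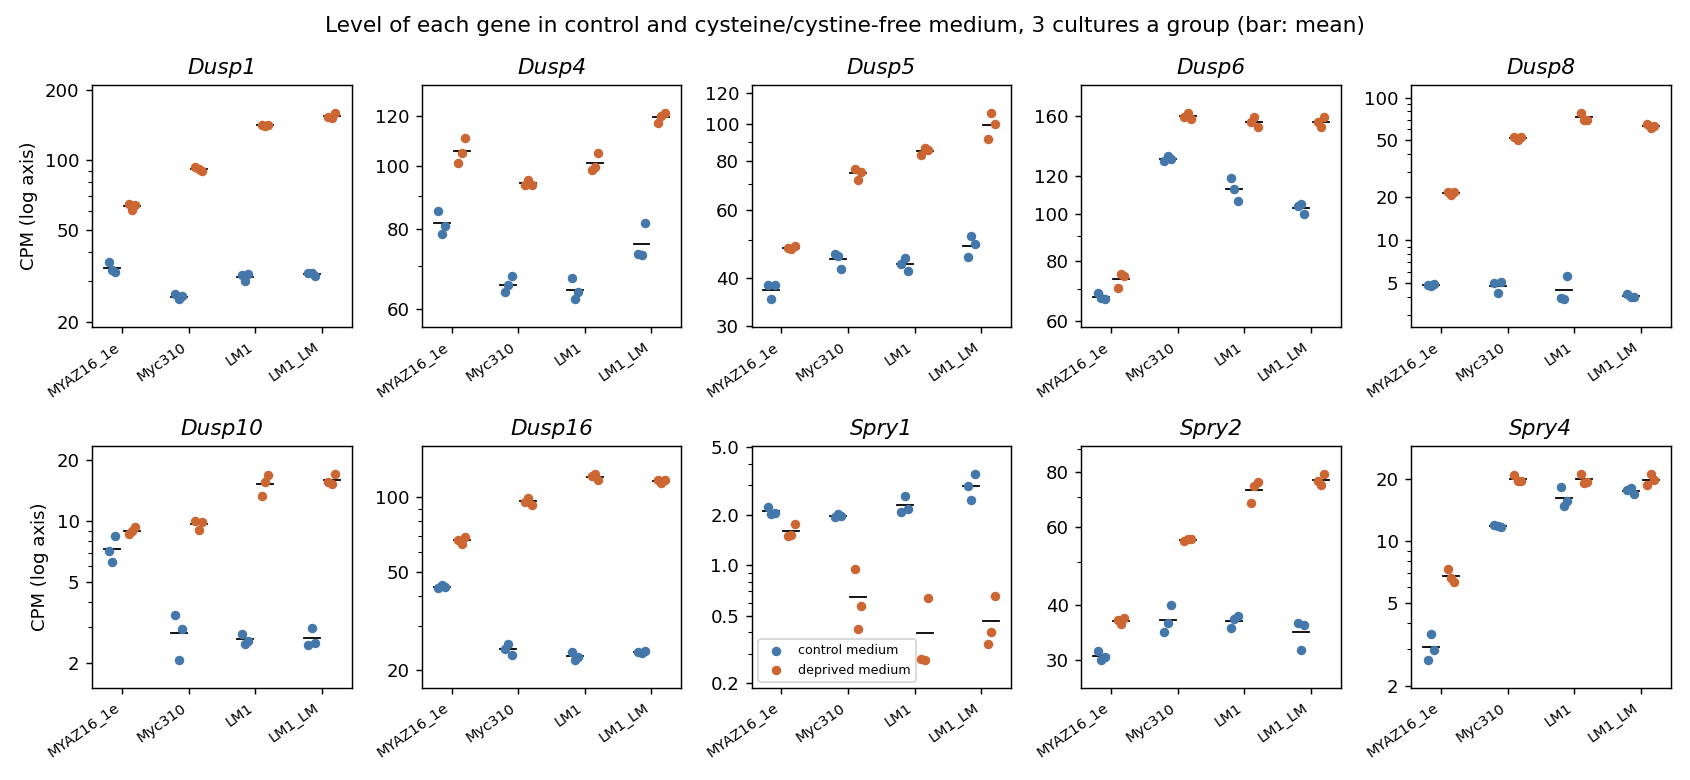
CPM of each gene (vertical log axes that differ between panels) in the 3 cultures of each line in control medium (blue) and cysteine/cystine-free medium (orange), with bars at the mean. Dusp8 lay at 4.06 to 4.81 CPM on average in control medium in all 4 lines and at 21.4 to 72.6 CPM after deprivation, Spry1 moved downward, and Spry4 reached about the same deprived level in Myc310, LM1 and LM1_LM.

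Among the phosphatases of JNK and p38, Dusp8, which acts on both kinases, was low before deprivation. The 3 MYAZ16_1e cultures gave 4.81, 4.74 and 4.89 CPM in control medium and 21.6, 20.8 and 21.7 CPM after deprivation. Myc310 gave 5.01, 4.27 and 5.09 CPM, and then 52.5, 50.6 and 53.3 CPM. LM1 gave 3.92, 3.84 and 5.58 CPM, and then 78.1, 70.1 and 69.7 CPM. Control levels were alike in these lines, and the deprived levels were far above them and differed by line. LM1_LM gave 4.18, 3.99 and 4.01 CPM and then 65.0, 61.5 and 63.7 CPM. The log2 fold change was 2.14 ± 0.09 (SE, n = 3 cultures per medium) in MYAZ16_1e, with an adjusted p of 4.04e-19 in edgeR, 3.43 ± 0.08 in Myc310, 4.06 ± 0.08 in LM1 and 4.002 ± 0.08 in LM1_LM. The 95% intervals of LM1 (3.90 to 4.22) and LM1_LM (3.84 to 4.16) overlapped.

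Dusp16, a JNK phosphatase, started from different levels. MYAZ16_1e cultures stood at 42.7, 44.2 and 43.3 CPM in control medium and at 67.1, 65.0 and 68.8 CPM when deprived. Myc310 cultures stood at 24.3, 25.3 and 22.9 CPM and then at 96.0, 99.8 and 93.6 CPM. The control order was thus turned round after deprivation, with Myc310 above MYAZ16_1e and no overlap between them in either medium. LM1 reached 122, 125 and 118 CPM from 23.6, 21.9 and 22.4 CPM. LM1_LM reached 118, 115 and 118 CPM from 23.7, 23.3 and 23.8 CPM. The gene rose by 0.62 ± 0.04 log2 units in MYAZ16_1e (1.54-fold, adjusted p = 3.92e-14, edgeR) and by 1.98 ± 0.04, 2.46 ± 0.04 and 2.35 ± 0.04 in Myc310, LM1 and LM1_LM. Dusp10, which encodes another JNK and p38 phosphatase, showed a similar arrangement at lower counts. Its MYAZ16_1e cultures moved from 7.16, 6.29 and 8.43 CPM to 8.70, 8.98 and 9.35 CPM. Those of Myc310 moved from 3.47, 2.07 and 2.94 CPM to 10.1, 9.09 and 9.98 CPM. Deprived cultures did not overlap with control cultures in either line, but in MYAZ16_1e the step was small. LM1 went from 2.78, 2.48 and 2.58 CPM to 13.3, 15.7 and 16.9 CPM, and LM1_LM from 2.45, 2.99 and 2.52 CPM to 15.6, 15.3 and 17.2 CPM. The Dusp10 log2 fold change was 0.29 ± 0.12 in MYAZ16_1e (adjusted p = 0.0455, edgeR), a call that was lost when any of 5 of the 6 libraries was left out (adjusted p 0.063 to 0.245, 0.29 falling to as little as 0.19) and with no filter beyond 1 count (adjusted p = 0.0664). It was 1.76 ± 0.14 in Myc310, 2.58 ± 0.14 in LM1 and 2.63 ± 0.13 in LM1_LM.

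**Figure D2:**
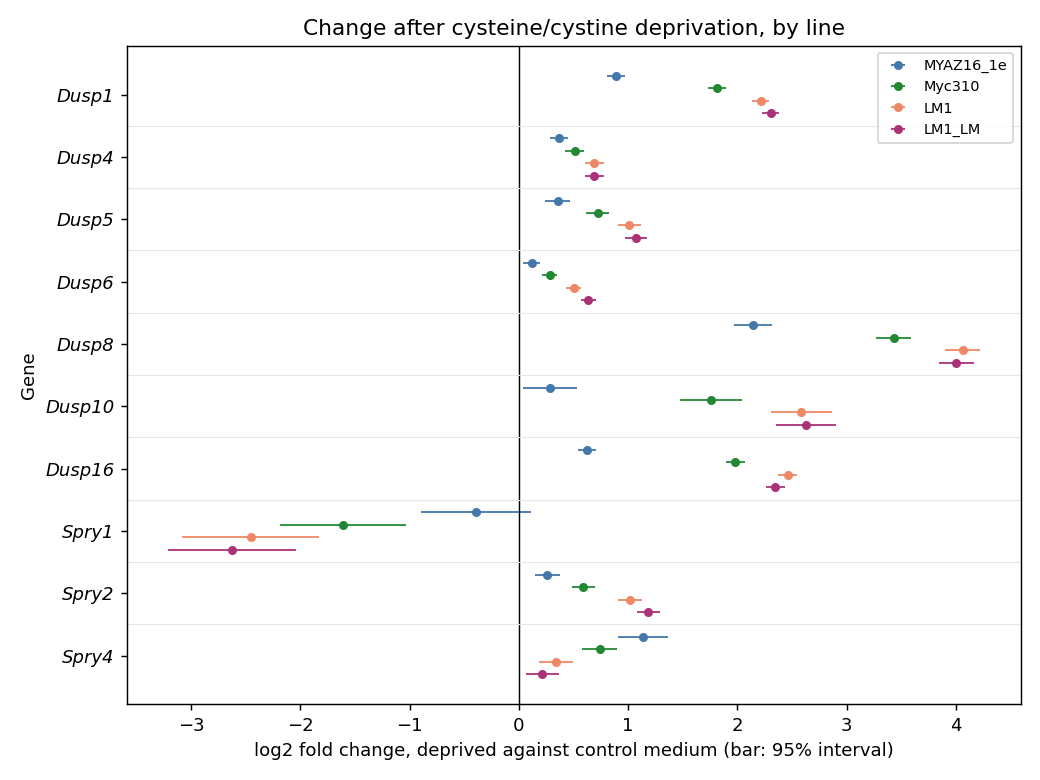
Log2 fold change of each gene in cysteine/cystine-free against control medium (horizontal axis) in 4 lines (colours), with 95% intervals from edgeR. For Dusp1, Dusp4, Dusp5, Dusp6, Dusp8, Dusp10, Dusp16 and Spry2 the MYAZ16_1e change is the smallest of the 4, for Spry4 it is the largest at 1.13, and Spry1 lies to the left of 0 in Myc310, LM1 and LM1_LM.

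Of the nuclear phosphatases, Dusp1, an immediate-early gene of stress and growth factor signalling, rose steeply and Dusp4 modestly. Dusp1 moved from 36.3, 33.6 and 32.8 CPM to 64.5, 61.0 and 64.0 CPM in MYAZ16_1e. It moved from 26.4, 24.9 and 25.7 CPM to 93.0, 91.1 and 89.6 CPM in Myc310. In LM1 it moved from 31.9, 29.99 and 32.0 CPM to 141, 140.3 and 142 CPM. Cultures of a group differed by little beside the gap between media. LM1_LM moved from 32.5, 32.6 and 31.6 CPM to 153, 152 and 159.9 CPM. These are log2 fold changes of 0.88 ± 0.04, 1.81 ± 0.04, 2.21 ± 0.04 and 2.30 ± 0.04, all past the threshold (largest adjusted p 9.30e-18, edgeR). Dusp4 rose by 0.37 ± 0.04 log2 units in MYAZ16_1e, 0.51 ± 0.04 in Myc310 and 0.69 ± 0.04 in both LM1 and LM1_LM. Its means went from 81.6 ± 3.49 to 106 ± 4.77 CPM (SD, n = 3) in MYAZ16_1e and from 75.8 ± 5.00 to 119 ± 2.23 CPM in LM1_LM.

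In Myc310, LM1 and LM1_LM the ERK-selective phosphatases had smaller changes than those of JNK and p38. Dusp5 went from 37.2 ± 1.79 to 47.9 ± 0.501 CPM in MYAZ16_1e and from 43.4 ± 1.70 to 85.2 ± 1.94 CPM in LM1. Its log2 fold change was 0.35 ± 0.06, 0.72 ± 0.05, 1.01 ± 0.05 and 1.07 ± 0.05 in MYAZ16_1e, Myc310, LM1 and LM1_LM. Dusp6, the cytoplasmic ERK phosphatase and a common readout of ERK output, rose by 0.12 ± 0.04 log2 units in MYAZ16_1e (adjusted p = 0.00914, edgeR). That call was lost without the second or the third deprived culture (adjusted p = 0.0572 and 0.0649). Dusp6 rose by 0.28 ± 0.03, 0.50 ± 0.03 and 0.63 ± 0.03 in Myc310, LM1 and LM1_LM. Its deprived means were 159.9 ± 2.38, 155 ± 3.54 and 156 ± 3.73 CPM in these 3 lines, from control means of 130 ± 1.71, 113 ± 6.31 and 103 ± 2.63 CPM. The deprived cultures of the 3 lines thus overlapped, whereas the control cultures did not overlap between Myc310 and LM1 or between LM1 and LM1_LM. In MYAZ16_1e the deprived mean was 73.3 ± 2.68 CPM.

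The Sprouty genes parted ways. Spry2 rose by 0.26 ± 0.06 log2 units in MYAZ16_1e, from 30.7 ± 0.710 to 36.8 ± 0.545 CPM, and by 0.59 ± 0.05 in Myc310, 1.02 ± 0.05 in LM1 and 1.19 ± 0.05 in LM1_LM, where it reached 76.7 ± 2.27 CPM from 34.7 ± 2.61 CPM. On the log2 scale, though not in CPM, Spry4 rose most in MYAZ16_1e, from 2.66, 3.57 and 2.99 CPM to 7.35, 6.62 and 6.38 CPM. In Myc310 it went from 12.03, 11.9 and 11.7 CPM to 20.9, 19.6 and 19.6 CPM. In LM1 it went from 18.2, 14.9 and 15.6 CPM to 21.2, 19.2 and 19.4 CPM. Control and deprived cultures did not overlap in any of these lines. LM1_LM moved from 17.6, 18.1 and 16.9 CPM to 18.7, 21.2 and 19.7 CPM. The Spry4 log2 fold change was 1.13 ± 0.11 in MYAZ16_1e, 0.74 ± 0.08 in Myc310, 0.34 ± 0.08 in LM1 and 0.21 ± 0.08 in LM1_LM (adjusted p = 0.0121, edgeR). The LM1_LM call was lost with upper-quartile scaling (adjusted p = 0.12) and without either of 2 libraries (control culture 3 or deprived culture 2, adjusted p = 0.0554 and 0.0855).

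Spry1 was the gene that fell, at counts low enough to limit its precision. MYAZ16_1e cultures held 2.20, 2.02 and 2.04 CPM in control medium and 1.49, 1.51 and 1.77 CPM after deprivation. Myc310 cultures held 1.93, 2.02 and 1.96 CPM, and then 0.950, 0.420 and 0.571 CPM. LM1 cultures held 2.06, 2.57 and 2.16 CPM, and then 0.279, 0.274 and 0.644 CPM. Control levels were close to 2 CPM in these lines and all deprived cultures lay below them. In LM1_LM the values were 2.97, 2.45 and 3.50 CPM, and then 0.344, 0.403 and 0.658 CPM. The deprived LM1 libraries held 6, 6 and 14 reads on Spry1 and those of LM1_LM 9, 8 and 14. The log2 fold change was -0.39 ± 0.25 in MYAZ16_1e (95% interval -0.89 to 0.11, adjusted p = 0.187, edgeR), -1.61 ± 0.28 in Myc310, -2.46 ± 0.31 in LM1 and -2.63 ± 0.29 in LM1_LM. Spry1 overlaps Gm42922 on the other strand. The study's libraries were made with a directional kit, but whether the counting used strand is not given in the sources used here. The same holds for Dusp5, Dusp8, Dusp10, Dusp16 and Spry4, which overlap other annotated genes, and Dusp1 overlaps genes on both strands.

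The second comparison asked whether the responses differed from that of MYAZ16_1e, the line kept as the reference, by testing the difference between log2 fold changes itself. The 3 contrasts share the MYAZ16_1e libraries and are therefore not independent. In Myc310, 7 genes responded more upward and 2 more downward than in MYAZ16_1e, where 19.8% and 20.4% of all genes tested did. In LM1 the counts were 8 and 2, against 26.9% and 25.3%, and in LM1_LM 8 and 2, against 28.4% and 26.4%. The 2 genes on the lower side were Spry1 and Spry4 each time. Spry1 fell further than in MYAZ16_1e, and Spry4 rose less. Dusp10 had the widest difference, 1.47 ± 0.19 (SE) for Myc310, 2.30 ± 0.19 for LM1 and 2.34 ± 0.18 for LM1_LM on the log2 scale (adjusted p 1.60e-07, 9.37e-12 and 3.34e-12, edgeR). Dusp16 differed by 1.36 ± 0.06, 1.84 ± 0.06 and 1.73 ± 0.06, and Dusp8 by 1.29 ± 0.13, 1.92 ± 0.13 and 1.86 ± 0.13. The difference for Dusp1 was 0.93 ± 0.06, 1.33 ± 0.06 and 1.42 ± 0.06. Dusp4, Dusp5, Dusp6 and Spry2 differed by 0.14 to 0.92, and the 0.14 ± 0.06 of Dusp4 in Myc310 did not pass (adjusted p = 0.0591).

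**Figure D3:**
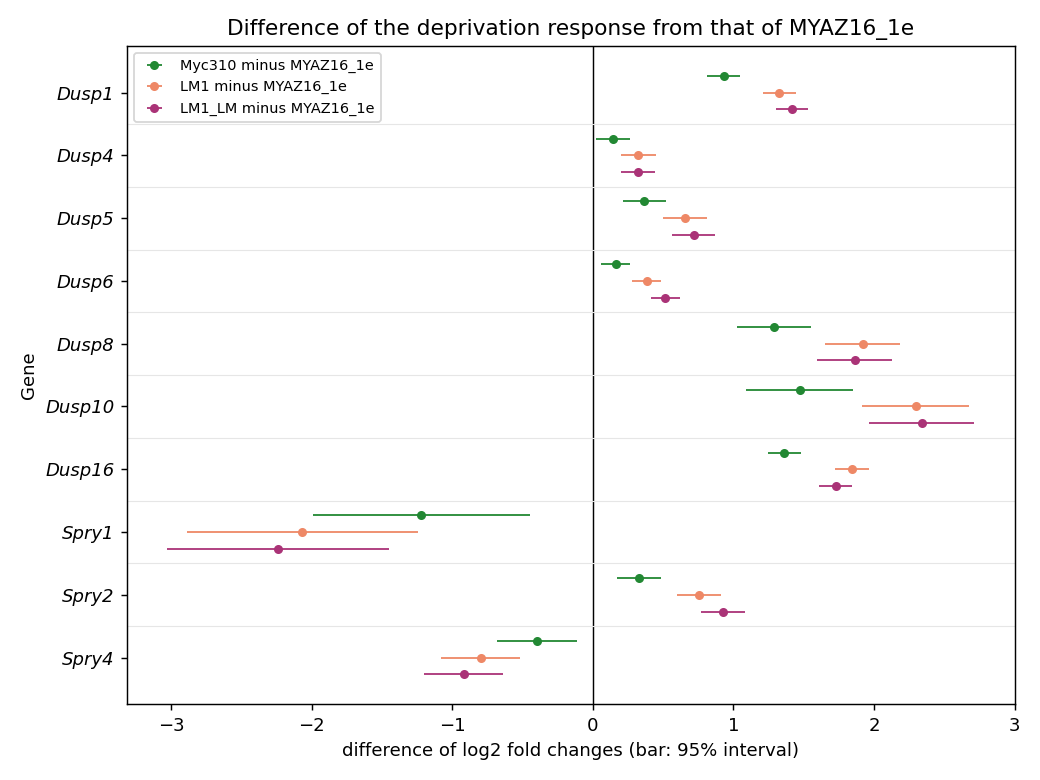
Difference between the deprivation response of Myc310, LM1 or LM1_LM and that of MYAZ16_1e, as a difference of log2 fold changes (horizontal axis) with 95% intervals from edgeR. Dusp10, Dusp16, Dusp8 and Dusp1 lie to the right, Spry4 and Spry1 to the left of 0, and the interval of Spry1 is the widest.

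For Spry4 the response differed by -0.39 ± 0.14 in Myc310 (adjusted p = 0.0231, edgeR), -0.80 ± 0.14 in LM1 and -0.92 ± 0.14 in LM1_LM. The Myc310 call on Spry4 was lost with limma voom, with no filter on low counts and without any of 3 MYAZ16_1e libraries (control culture 1 or 3 or deprived culture 1, adjusted p 0.0706 to 0.0985). The deprived level of Spry4 was 20.0 ± 0.730 CPM in Myc310, 20.0 ± 1.07 in LM1 and 19.9 ± 1.28 in LM1_LM, so that the 3 lines overlapped after deprivation, whereas in control medium Myc310 lay below LM1 and LM1_LM, which overlapped with each other. For Spry1 the difference was -1.22 ± 0.38, -2.06 ± 0.40 and -2.24 ± 0.39 (adjusted p 0.0102, 6.32e-05 and 1.09e-05). Control levels of Spry1 in Myc310 (1.97 ± 0.0463 CPM) and MYAZ16_1e (2.09 ± 0.102 CPM) were close, with overlapping cultures. Responses of Myc310, LM1 and LM1_LM were not tested against each other. The marker gene Cd14, listed as a leukocyte marker, moved with the response, with log2 fold changes of 0.46 in MYAZ16_1e, 0.80 in Myc310, 1.34 in LM1 and 1.43 in LM1_LM, and the sum of the 7 leukocyte markers found was higher in deprived than in control cultures of all 4 lines, without overlap. In MYAZ16_1e it lay between 34.6 and 39.0 CPM in control medium and between 47.6 and 51.8 CPM after deprivation, and in Myc310 between 41.2 and 43.2 CPM and then between 69.0 and 70.8 CPM. In LM1 it lay between 30.4 and 32.5 CPM and then between 63.8 and 69.2 CPM, and in LM1_LM between 31.9 and 34.1 CPM and then between 64.2 and 68.8 CPM. Ptprc stayed at or below 0.233 CPM in every library. The fibroblast sum lay between 57.6 and 63.6 CPM in control and between 26.9 and 29.2 CPM in deprived LM1_LM cultures, and between 15.1 and 17.7 CPM and then between 10.5 and 11.4 CPM in LM1. In MYAZ16_1e and Myc310 it went the other way, from at most 10.2 CPM to at least 10.7 CPM and from at most 2.16 CPM to at least 2.68 CPM. The endothelial sum was lower in deprived cultures, without overlap, in Myc310, LM1 and LM1_LM, and the epithelial sum higher, without overlap, in all 4 lines (in LM1 at most 1134 CPM in control medium and at least 1383 CPM after deprivation). The alveolar sum was at most 2.48 CPM in each of these libraries. The part of these markers in the responses was not tested.

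The third comparison asked how the genes varied with metastatic background before any deprivation. Between genes, levels were compared per kilobase of exon, as CPM per kb averaged over the lines in control medium. Dusp6 stood highest at 38.7, followed by Dusp4 at 25.5, Dusp5 at 20.6 and Spry2 at 16.1. Dusp1 followed at 10.3, Dusp16 at 4.27, Spry4 at 3.47, Dusp10 at 1.68, Spry1 at 1.47 and Dusp8 at 0.969. ERK-selective phosphatases thus lay above those of JNK and p38 on this scale. Dusp4 and Spry2 varied least between lines. Their line means spanned 64.0 to 81.6 CPM and 30.1 to 37.1 CPM, and in the order of line means 9 of 10 and 10 of 10 neighbouring lines overlapped. Spry1 varied most, by 31.2-fold.

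**Figure D4:**
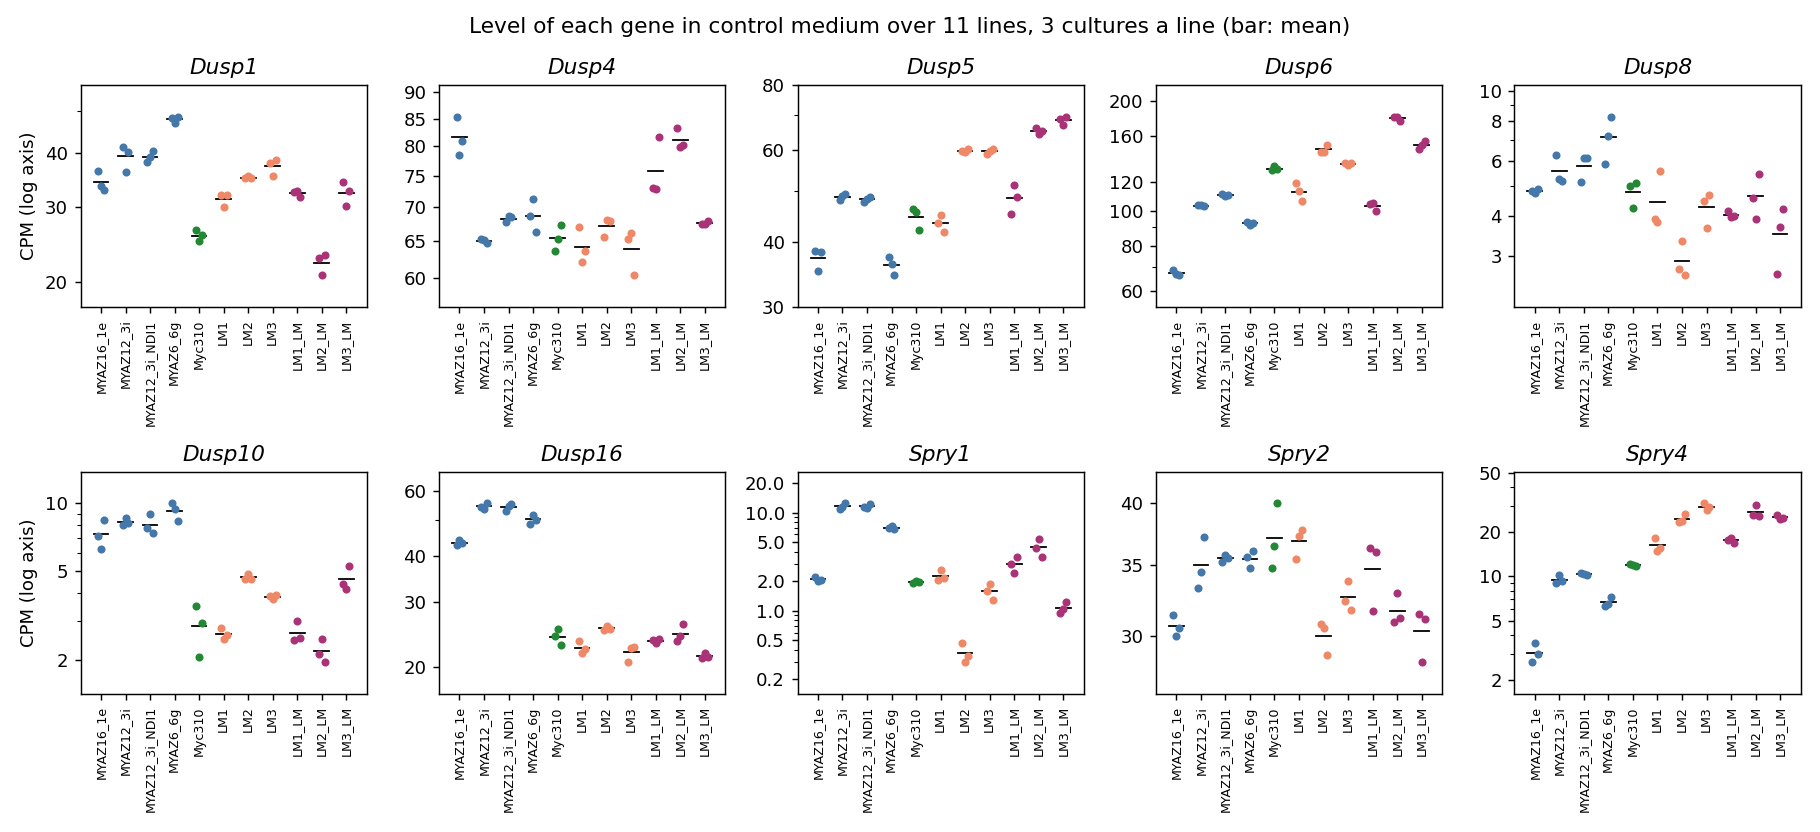
CPM of each gene in control medium (vertical log axes that differ between panels) in the 3 cultures of 11 lines, coloured as MYAZ lines (blue), Myc310 (green), LM (orange) and LM_LM (purple), with bars at the mean. Dusp10 and Dusp16 are higher in all blue lines, MYAZ12_3i_NDI1 included, than in the others, Spry4 runs the other way, and Spry1 ranges from 0.373 CPM in LM2 to 11.6 CPM in MYAZ12_3i.

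Dusp16 divided the MYAZ lines from Myc310 and its descendants. MYAZ12_3i had 54.4 ± 1.01 CPM, MYAZ6_6g 50.2 ± 1.44 and MYAZ16_1e 43.4 ± 0.754. MYAZ12_3i_NDI1 lay at 54.2 ± 1.22 CPM and overlapped with its parent. Myc310 and its descendants lay between 21.5 ± 0.401 CPM in LM3_LM and 25.5 ± 0.337 CPM in LM2, and each overlapped with its neighbour in the order LM2, LM2_LM, Myc310, LM1_LM, LM1, LM3 and LM3_LM. Dusp10 was split in the same way. MYAZ6_6g, MYAZ12_3i and MYAZ16_1e gave 9.27 ± 0.864, 8.27 ± 0.307 and 7.29 ± 1.07 CPM and overlapped with each other through neighbouring lines. MYAZ12_3i_NDI1 lay among them at 8.05 ± 0.857 CPM. Of Myc310 and its descendants the highest was LM2 with 4.70 ± 0.140 CPM and the lowest LM2_LM with 2.19 ± 0.263 CPM. Spry4 had the opposite order, with 3.07 ± 0.462 CPM in MYAZ16_1e, 6.71 ± 0.481 in MYAZ6_6g, 9.52 ± 0.583 in MYAZ12_3i and 11.9 ± 0.152 in Myc310. It rose to 16.2 ± 1.75 CPM in LM1, 17.5 ± 0.620 in LM1_LM, 24.4 ± 1.66 in LM2, 25.0 ± 0.807 in LM3_LM, 27.1 ± 2.54 in LM2_LM and 29.5 ± 1.51 in LM3. The LM1 and LM1_LM cultures overlapped, as did neighbours among the last 4, and gaps without overlap separated Myc310, LM1 and the LM2 group.

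Dusp6 ranged from 67.4 ± 1.06 CPM in MYAZ16_1e to 179 ± 2.90 CPM in LM2_LM, but LM1_LM (103 ± 2.63 CPM) overlapped with MYAZ12_3i (103 ± 0.502 CPM). Dusp5 was highest in LM3_LM (68.5 ± 1.37 CPM) and lowest in MYAZ6_6g (36.1 ± 1.46 CPM), with Myc310 and LM1 between. Dusp1 was highest in MYAZ6_6g (47.9 ± 0.848 CPM) and lowest in LM2_LM (22.2 ± 1.25 CPM), and Dusp8 ranged from 7.11 ± 1.20 CPM in MYAZ6_6g to 2.90 ± 0.397 CPM in LM2. Spry1 gave 10.9, 11.6 and 12.4 CPM in MYAZ12_3i, 6.98, 7.39 and 6.81 CPM in MYAZ6_6g and about 2 CPM in MYAZ16_1e. In the lung-derived lines it was highest in LM2_LM (4.45 ± 0.912 CPM) and lowest in LM2 (0.471, 0.301 and 0.348 CPM, from 11, 7 and 8 reads). The MYAZ lines thus differed among themselves more for Spry1 than for any other of the 10 genes. Summed fibroblast markers were also uneven between these lines, at 94.1 to 98.4 CPM in MYAZ12_3i, 32.7 to 34.97 in MYAZ6_6g and 7.46 to 10.2 in MYAZ16_1e, and their part in the Spry1 level was not tested.

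With each culture as a sample and subtype as the only term, Myc310 had 2 of the 10 genes higher and 4 lower than the MYAZ lines, where 23.8% and 27.1% of 13795 genes tested were. LM lines had 3 higher and 6 lower, against 30.3% and 30.5%, and LM_LM lines 3 higher and 5 lower, against 30.5% and 32.3%. These counts treat cultures of a line as independent. Tests on counts summed per line, given next, avoid that but treat the LM and LM_LM lines as independent, although all descend from Myc310. In both, the 3 contrasts share the MYAZ lines. With counts summed per line, 1 gene was lower in Myc310 (4.72% of 16017 genes tested were higher and 4.2% lower), 1 was higher and 2 lower in LM (11.3% and 12.4%), and 2 were higher and 2 lower in LM_LM (12.8% and 13.6%). Dusp16 was lower on the summed counts in all 3 subtypes, by -1.01 ± 0.17 (log2, SE) in Myc310, -1.06 ± 0.11 in LM and -1.08 ± 0.11 in LM_LM (adjusted p 0.0106, 0.000653 and 0.000526, edgeR). Dusp10 was lower by -1.14 ± 0.33 in LM and -1.39 ± 0.33 in LM_LM (adjusted p 0.0385 and 0.0173). Spry4 was higher by 1.89 ± 0.40 in LM and 1.86 ± 0.40 in LM_LM (adjusted p 0.0118 and 0.0114), that is 3.69-fold and 3.63-fold. Dusp6 was higher in LM_LM (0.73 ± 0.23, adjusted p = 0.0436). On the summed counts Spry1 differed by -1.80 ± 1.23, -2.28 ± 0.82 and -1.30 ± 0.79 and did not pass in any subtype (adjusted p 0.391, 0.0758 and 0.259), and no call on Dusp1, Dusp4, Dusp5 or Dusp8 was left. In LM, the calls on Dusp1 (-0.23) and Dusp4 (-0.14) with each culture as a sample changed in 7 and 5 of 12 alternatives, with values as small as -0.09 without MYAZ6_6g and -0.04 without MYAZ16_1e. The Dusp1 call was lost without any of LM1, LM2, MYAZ12_3i or MYAZ6_6g, and that on Dusp4 without any of LM1, LM3 or MYAZ16_1e. With each culture as a sample, the Spry1 call in Myc310 rested on MYAZ12_3i (-1.22 without that line, adjusted p = 0.118, edgeR) and was lost without any 1 Myc310 culture (adjusted p 0.0666 to 0.0715), and in LM_LM it was lost without MYAZ12_3i (-0.71, adjusted p = 0.17) or LM3_LM (-0.93, adjusted p = 0.0644). Markers of other cell types moved with the subtypes. With each culture as a sample, 3, 3 and 2 of the 3 leukocyte markers tested were higher in Myc310, LM and LM_LM than in the MYAZ lines, 4, 3 and 4 of the 5 fibroblast markers lower (0, 1 and 1 higher), 3, 3 and 1 of the 4 endothelial markers higher (1 lower in each), and 3, 2 and 2 of the 3 alveolar markers lower. Of the 7 epithelial markers tested, 2, 3 and 3 were higher and as many lower. On the summed counts 1, 2 and 2 of 4 leukocyte markers were higher, and 0, 2 and 3 of 6 fibroblast, 1, 1 and 2 of 6 endothelial and 0, 3 and 3 of 8 epithelial markers lower. The leukocyte sum lay between 17.7 and 39.0 CPM in the MYAZ lines and between 30.4 and 53.4 CPM in the others, which overlap, and the part of these markers in the subtype differences was not tested.

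**Figure D5:**
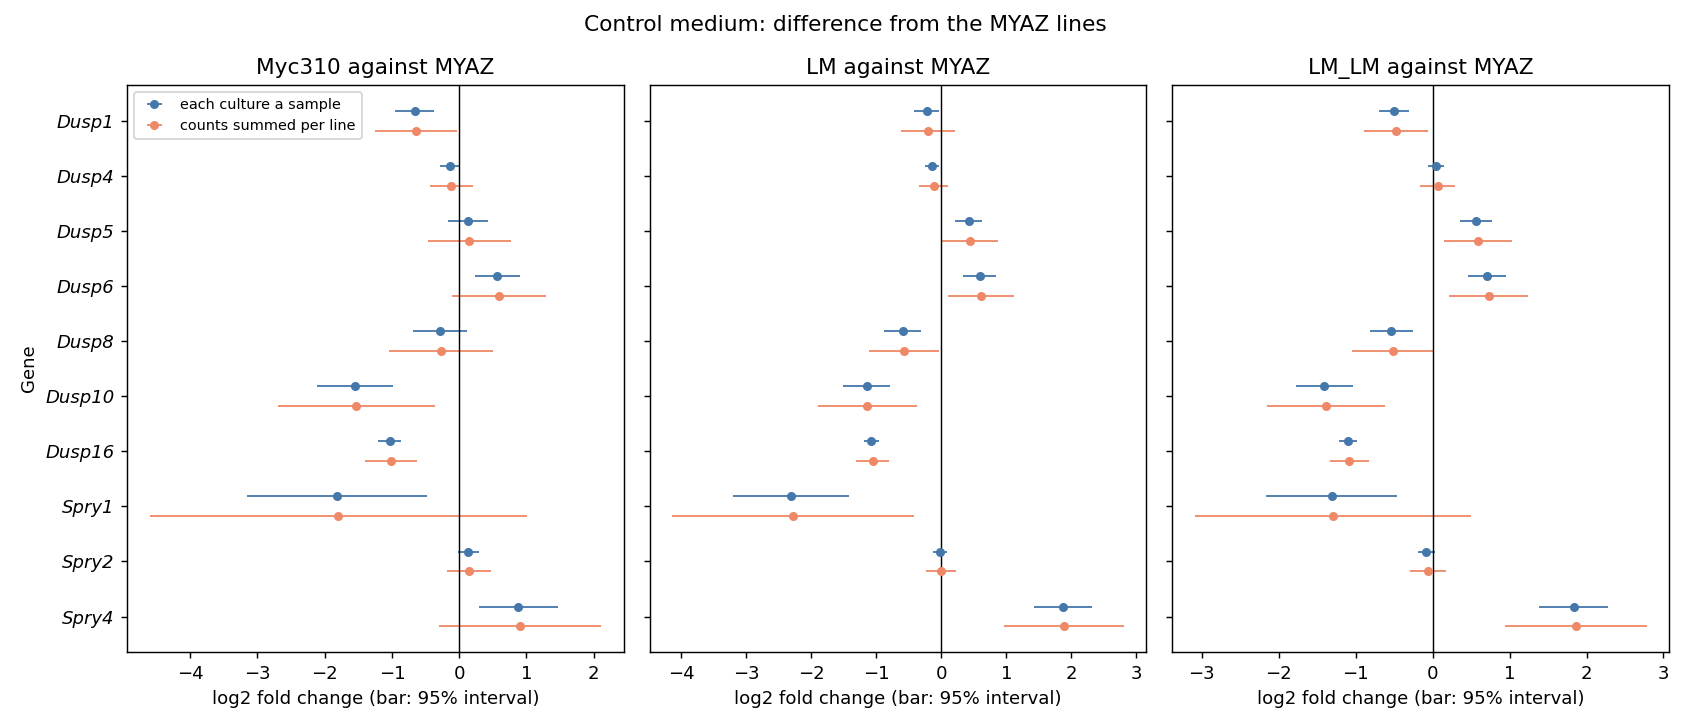
Log2 fold change of each gene in control medium between Myc310, LM or LM_LM lines and the MYAZ lines (horizontal axes), with each culture as a sample (blue) or counts summed per line (orange), and 95% intervals from edgeR. The Dusp16 intervals stay left of 0 in all 3 panels under both, those of Spry4 right of 0 for LM and LM_LM, and that of Spry1 is the widest.

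MYAZ12_3i_NDI1 was compared with its parent MYAZ12_3i in control medium, where 8.14% of 12841 genes tested were higher and 9.27% lower. Of the 10 genes, 0 passed in edgeR and 0 in DESeq2, and 1, Dusp6, had an unadjusted p under 0.05 (0.0141, adjusted p = 0.0694, edgeR). Dusp6 passed in 1 of 11 alternatives, that with all 33 control libraries in the edgeR fit (adjusted p = 0.0356, range 0.0356 to 0.203 over the alternatives). The Dusp6 means were 110.2 ± 0.814 and 103 ± 0.502 CPM, a log2 difference of 0.09 ± 0.03. Every 95% interval of the 10 genes lay between -0.26 and 0.33 on the log2 scale. Dusp16 stood at 54.2 ± 1.22 CPM against 54.4 ± 1.01 CPM and Spry1 at 11.6 ± 0.548 against 11.6 ± 0.765 CPM, with overlapping cultures. Spry4 differed by 0.12 ± 0.09 (95% interval -0.07 to 0.30), at 10.3 ± 0.196 against 9.52 ± 0.583 CPM.

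The rest of the pathway was read from 5 lists, beside shares of all genes tested of 26.6% higher and 27.1% lower in MYAZ16_1e, 32.8% and 33.9% in Myc310, 35.8% and 35.3% in LM1 and 36.5% and 35.9% in LM1_LM. Of 21 tested genes for other MAP kinase phosphatases and feedback inhibitors, 8 were higher and 4 lower in MYAZ16_1e, 11 and 5 in Myc310, 11 and 8 in LM1 and 12 and 8 in LM1_LM after deprivation. The higher counts lay above the shares of all genes, and the lower counts under them in MYAZ16_1e and Myc310 and near them in LM1 and LM1_LM. Errfi1, which encodes an inhibitor of the EGF receptor family, rose by 0.49 ± 0.03, 1.41 ± 0.03, 1.69 ± 0.03 and 1.69 ± 0.03 log2 units in the 4 lines in that order. Socs2, an inhibitor of cytokine receptor signalling, rose by 0.62, 1.22, 1.54 and 1.499. Not all phosphatases followed Dusp1 and Dusp8. Dusp9, an ERK-selective phosphatase, fell by 0.61, 0.99, 1.23 and 1.31 log2 units, from 207 to 86.1 CPM in LM1. Dusp22 gave -0.03 and -0.29 in MYAZ16_1e and Myc310, neither past the threshold, and fell by 1.44 and 0.61 in LM1 and LM1_LM. The fall in LM1 was from 0.348 to 0.123 CPM, a few reads per library. The list thus split in direction, with a median of 0.34 in LM1 against 1.01 for the 10 feedback inhibitors.

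Among 14 tested EGF and FGF family ligands and receptors, 5 or 6 were higher and 2 to 4 lower in each line. In LM1 and LM1_LM the 5 higher were near the shares of all genes (35.8% and 36.5%), and the lower counts were under the shares in each line. Areg, the EGF receptor ligand amphiregulin, rose by 1.67 ± 0.17, 3.85 ± 0.05, 4.67 ± 0.06 and 4.39 ± 0.05 log2 units in MYAZ16_1e, Myc310, LM1 and LM1_LM. Its level went from 1.02 ± 0.179 to 3.26 ± 0.309 CPM in MYAZ16_1e and from 8.32 ± 0.523 to 207 ± 5.78 CPM in LM1. Hbegf, another ligand of that receptor, rose by 0.22, 1.49, 1.65 and 1.67. The receptor gene Erbb2 fell by 0.12, 0.42, 0.49 and 0.48, and the ligand gene Tgfa gave 0.03 in MYAZ16_1e, not past the threshold, and fell by 0.13, 0.43 and 0.32 in the others. In the RAS-ERK cascade of 20 genes, 7 were higher and 8 lower in MYAZ16_1e, 11 and 6 in Myc310, 12 and 4 in LM1 and 13 and 4 in LM1_LM. Of all genes 26.6% were higher and 27.1% lower in MYAZ16_1e and 32.8% and 33.9% in Myc310, where the 6 lower were near that share. The adaptor gene Gab1 gave 0.21 in MYAZ16_1e, not past the threshold, and rose by 0.59, 1.84 and 2.59 in the others, and the kinase gene Braf rose by 0.18, 0.74, 0.97 and 1.03. The scaffold gene Ksr1 fell by 0.42, 0.88, 1.45 and 1.83, and Hras by 0.48, 0.89, 1.03 and 1.07.

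The JNK and p38 cascade, upstream of the targets of Dusp8, Dusp10 and Dusp16, was read in the same way. Of 16 tested, 2 were higher and 5 lower in MYAZ16_1e, 3 and 10 in Myc310, and 5 and 9 in both LM1 and LM1_LM. The 5 lower in MYAZ16_1e were near the 27.1% of all genes and the 5 higher in LM1 and LM1_LM near the 35.8% and 36.5%, while the lower counts in Myc310, LM1 and LM1_LM were above the 33.9%, 35.3% and 35.9% of all genes. The p38 kinase kinases Map2k6 and Map2k3 fell, Map2k6 by 0.85 ± 0.19, 1.85 ± 0.25, 1.86 ± 0.27 and 1.97 ± 0.25 log2 units at 5.72 CPM or less, and Map2k3 by 0.32, 0.39, 0.57 and 0.64. Map3k5, which encodes the stress kinase ASK1, rose by 0.41, 0.48, 0.47 and 0.39, and Map3k20 by 0.16, 0.47, 0.52 and 0.59. Of 20 transcripts known to be induced by ERK, 11 were higher and 3 lower in MYAZ16_1e, 15 and 3 in Myc310, 14 and 4 in LM1 and 15 and 4 in LM1_LM, with medians of 0.38, 0.91, 0.97 and 0.95. Of all genes 26.6%, 32.8%, 35.8% and 36.5% were higher and 27.1%, 33.9%, 35.3% and 35.9% lower. Plk3, a stress-responsive kinase gene, rose by 1.97, 3.36, 4.20 and 4.41, from 30.8 to 552 CPM in LM1, and Fosb, a subunit of AP-1, by 0.38, 1.82, 2.54 and 2.08. Egr3 gave -0.12 and -0.27 in MYAZ16_1e and Myc310, not past the threshold, and fell by 1.04 and 1.10 in LM1 and LM1_LM. The cyclin gene Ccnd1 fell by 0.08, 0.22, 0.57 and 0.68.

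Likeness was measured for the gene with the widest response and the gene with the widest range between lines, as Pearson's r of mean log2 CPM over the 15 groups against 9090 other genes. Dusp8 was most like Ppp1r15a (r = 0.990), which encodes a phosphatase subunit acting on eIF2 alpha, and Lars (r = 0.989), the leucyl-tRNA synthetase gene. These r rest mostly on the step between the 11 control and the 4 deprived groups, which come from the same lines. Ppp1r15a changed by 2.31 ± 0.05, 3.95 ± 0.05, 4.21 ± 0.04 and 4.35 ± 0.04 log2 units in MYAZ16_1e, Myc310, LM1 and LM1_LM, beside 2.14, 3.43, 4.06 and 4.002 for Dusp8. Spry1 was most like Ssr2 (r = 0.952), which encodes a subunit of the translocon-associated complex, Ttc23 (r = 0.932) and Trmt13 (r = 0.930). Ssr2 ranged only from 116 CPM in LM2 to 169.7 CPM in MYAZ12_3i_NDI1 in control medium, against 0.373 to 11.6 CPM for Spry1.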

How the data were processed

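Polyadenylated RNA of 45 cultures was sequenced from both ends. Per the study's methods and the submitters' processing notes, the authors used STAR for alignment to GRCm38 and RSEM for quantification. The deposited table holds raw gene counts, whole numbers that were not normalized. The annotation and the strand setting of the counting are not given in the sources used here. Library names tied each column to its culture.

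From these counts, in R 4.3.3, edgeR 4.0.16 (TMM, filterByExpr, quasi-likelihood test, two-sided, Benjamini-Hochberg at 0.05) was fitted to all genes: 24 libraries in 8 groups for deprivation and its differences (13400 genes), 30 control libraries of 10 lines with subtype only (13795 genes), with counts summed per line as the alternative (16017 genes), and 6 libraries for NDI1 (12841 genes). The models were tested on simulated data. With 3 against 3 cultures an exact permutation test cannot go below 0.1 and was not used. CPM used TMM factors over all 45 libraries, and log2 CPM a prior count of 2. SE and 95% intervals come from the quasi-likelihood fit. Alternatives were RLE and upper-quartile scaling, 2 filters, DESeq2 1.42.0, limma voom (limma 3.58.1), the replicate number as a block, only the libraries of the lines compared, all 33 control libraries for NDI1, leaving out each library or line, and CPM of raw totals. Totals of 19517859 to 29019988 counts set the precision.

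The members and gene lists were chosen with earlier results of these data known. Named were all 10 members, of each other list the 2 tested genes with the highest and the 2 with the lowest mean deprivation change among those past the threshold in at least 1 line and whose log2 CPM averaged 1 or more, the 3 genes most like Dusp8 and Spry1 (log2 CPM averaging 3 or more, 1 of them not reported here), and Myc. Krt8, Krt18, Epcam, Cdh1, Ptprc, Pecam1, Sftpc, Cd14, Cd68, Egfl7, Kdr and Hopx are from the marker lists and were named after their values were seen. Exon lengths are unions of GENCODE mouse release 21 exons (GRCm38), and promoters are RefSeq.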

Additional observations from a re-analysis of the deposited data

Results flagged for a closer look

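The response to cysteine/cystine deprivation differed between lines by the test of the difference itself (edgeR, Benjamini-Hochberg at 0.05) in 29 of 30 tests, 10 genes in each of Myc310, LM1 and LM1_LM against MYAZ16_1e. Of all 13400 genes tested, 19.8% responded more upward and 20.4% more downward in Myc310. The shares were 26.9% and 25.3% in LM1 and 28.4% and 26.4% in LM1_LM. Values given for the 10 genes are differences of log2 fold changes. Their cause was not tested, and all share the MYAZ16_1e libraries. In Myc310 the response was more upward by 1.47 for Dusp10, 1.36 for Dusp16, 1.29 for Dusp8, 0.93 for Dusp1, 0.37 for Dusp5, 0.33 for Spry2 and 0.16 for Dusp6, and more downward by -1.22 for Spry1 and -0.39 for Spry4. In LM1 the response was more upward by 2.30 for Dusp10, 1.92 for Dusp8, 1.84 for Dusp16, 1.33 for Dusp1, 0.76 for Spry2, 0.65 for Dusp5, 0.38 for Dusp6 and 0.32 for Dusp4, and more downward by -2.06 for Spry1 and -0.80 for Spry4. In LM1_LM the response was more upward by 2.34 for Dusp10, 1.86 for Dusp8, 1.73 for Dusp16, 1.42 for Dusp1, 0.92 for Spry2, 0.72 for Dusp5, 0.52 for Dusp6 and 0.32 for Dusp4, and more downward by -2.24 for Spry1 and -0.92 for Spry4.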

How the results depend on the processing

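Across alternatives, 1547 of the member fold changes outside the main fits kept direction and side of the threshold, 47 lost the call, 14 gained it and 15 changed sign. No sign changed in the deprivation responses or their differences. With at least 10 counts in every library Spry1 was not tested, so the genes lower under deprivation went from 1 to 0 in Myc310, LM1 and LM1_LM, and the genes with a lower response than MYAZ16_1e from 2 to 1 in each. In Myc310 that count was also 1 with no filter beyond 1 count and with limma voom, and 1 to 2 when a library was left out (1 without MYAZ16_1e control culture 1 or 3 or deprived culture 1). Dusp4 gained the Myc310 call in 9 alternatives (adjusted p 0.0171 to 0.0494; 0.0171 to 0.156 over all). With counts summed per line, which leaves fewer samples, genes called fell from 7022 to 1429 in Myc310, 8385 to 3788 in LM and 8661 to 4226 in LM_LM, the 10 members higher from 2 to 0 in Myc310 and 3 to 1 in LM, and lower from 4 to 1, 6 to 2 and 5 to 2. For NDI1, 2236 genes became 1243 to 2209 when a library was left out (1475, 1480 and 1243 without MYAZ12_3i control culture 1, 2 and 3; 1492 without NDI1 culture 2), and the members higher went from 0 to 1 with all 33 control libraries (Dusp6, 0.09, adjusted p = 0.0356). Signs changed, at values not past the threshold, in Spry2 for LM against MYAZ (-0.0236, range -0.0915 to 0.0354 with a line left out, 0.0354, 0.0051 and 0.0132 without LM2, MYAZ12_3i and MYAZ6_6g), in Dusp4 for LM_LM (0.0424, and -0.0136 and -0.0227 without LM2_LM and MYAZ12_3i, against 0.1414 and a gained call without MYAZ16_1e, adjusted p = 0.00714), and, for NDI1 with a library left out, in Dusp1 (-0.063 to 0.0313), Dusp10 (-0.1334 to 0.0271), Dusp16 (-0.0233 to 0.0046), Spry1 (-0.0477 to 0.0443) and Spry2 (-0.0161 to 0.0607). Spry2 for LM_LM gained the call without LM1_LM or MYAZ16_1e (-0.135 and -0.1486, adjusted p = 0.0469 and 0.0193). The cause was not tested except where named.

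Replicate numbers did not pair the samples: deviations of same-numbered libraries correlated at -0.176 to 0.158, and 1 of 12 pairs exceeded 0.1. With the replicate number as a block, 9 members were again higher under deprivation in each line, 8 rather than 7 had a higher response in Myc310 (Dusp4, 0.14, adjusted p = 0.0437), and 5 rather than 6 were lower in LM (Dusp1, -0.22, adjusted p = 0.0506). Depth limits Spry1, at 6 to 21 reads in deprived libraries of Myc310, LM1 and LM1_LM.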
